A study of Drosophila melanogaster with 8 samples.

Results

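Of the 15598 genes listed for early *Drosophila melanogaster* embryos, 11 had their highest wild-type mRNA level at 4–5 h after egg laying together with a steep last step. They were chosen from the wild-type values alone: an FPKM of at least 5 at 4–5 h, at least 2 times the value at each of the 4 earlier wild-type stages, and below 10 at 3–4 h. FPKM is the number of fragments of a gene after correction for transcript length and for how deeply the library was sequenced, so levels of different genes can be set side by side. A locus span of at least 300 bases and a valid estimate in all 8 tables were also required, which 14468 genes met. The 11 genes are *CG33494*, *CG8083*, *Ugt36Bc*, *CG12974*, *CG6475*, *LysD*, *CG9509*, *CG42712*, *CG10550*, *CG43290* and *CG14957*. Their wild-type levels are therefore a description of what the selection took, and only the maternal NSUN2 knockout tables hold values that it did not use.

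Polyadenylated RNA was sequenced from whole embryos of w1118 flies at 0–0.5, 1–2, 2–3, 3–4 and 4–5 h, and from maternal NSUN2 knockout embryos at 0–0.5, 2–3 and 4–5 h. The wild-type embryos came from w1118 mothers and the knockout embryos from mothers lacking both copies of NSUN2, and both kinds of mother were mated to w1118 males, with 70 to 100 embryos pooled for each time window. The knockout line carries a small CRISPR/Cas9 mutation that truncates the enzyme. Because the gene is on the X chromosome, sons of these mothers have no intact copy and daughters have 1, so the loss is not purely maternal. The mRNA of NSUN2 itself, listed as *Nsun2*, stood at 6.59 FPKM in wild-type embryos at 4–5 h and at 1.18 in knockout embryos of that age. With 1 table per condition, differences could not be set against replicates and were not tested. The bounds printed in parentheses are those of the Cufflinks interval, which covers uncertainty within a table but leaves out how much separate collections vary.

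A fly embryo starts on RNA that its mother loaded into the egg. That RNA is cleared while the embryo's own genome is switched on, sparsely at first and then broadly around the time the cells form and gastrulation begins, a handover called the maternal-to-zygotic transition. NSUN2 is an RNA methyltransferase that places 5-methylcytosine on tRNAs and on mRNAs, and maternal mRNAs of early embryos are among its targets. The time window from 3 to 5 h covers gastrulation and germ band extension in wild-type embryos, when tissue primordia are set apart but most larval organs are not yet formed.

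By their current names or gene families, 4 of the 11 genes encode or are related to enzymes acting on small molecules, 1 encodes a transporter and 1 a lysozyme. The other 5 have only a number, and no family is given for them here. Where a current name differs from that of the tables, it is given from a later annotation, in which 10 of the 11 were found, all of them as protein-coding genes. Positions are those of the tables, on the BDGP5 build. The sequences of the genes were not analysed here.

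*Ugt36Bc* (FBgn0040260, now *Ugt37D1*, chromosome arm 2L, 16799025 to 16801584) and *CG6475* (FBgn0038886, now *Ugt49B2*, 3R, 17223503 to 17225464) encode UDP-glycosyltransferases, which attach a sugar to small lipophilic compounds so that they can be excreted or stored. *Ugt36Bc* in wild type was 0, 0, 0.0909, 6.20 (5.41 to 6.98) and 12.4 (11.2 to 13.7) FPKM in order of age, from 0–0.5 h to 4–5 h. In the knockout tables, again in order of age, it was 0, 0.0367 and 4.36 (3.77 to 4.95). It thus had almost no mRNA until 2–3 h in either genotype, and the knockout reached a level at 4–5 h that lay below wild type at 3–4 h. *CG6475* in wild type was 0.109, 0.0255, 0.106, 3.11 (2.53 to 3.69) and 9.62 (8.54 to 10.7) FPKM in order of age. In the knockout it was 0.0215, 0.0643 and 4.85 (4.20 to 5.49). For this gene the knockout value at 4–5 h lay above wild type at 3–4 h, with intervals that did not overlap, and below wild type at 4–5 h.

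*CG9509* (FBgn0030594, now *fiz*, X, 14800367 to 14803097) encodes an oxidoreductase of the glucose-methanol-choline family, and *CG10550* (FBgn0039321, 3R, 21132129 to 21134109) belongs to the ecdysteroid kinase-like family, named after an insect kinase that phosphorylates moulting hormones. *CG9509* in wild type was 0.113, 0.0889, 0.185, 2.57 (2.14 to 3.01) and 7.15 (6.37 to 7.93) FPKM in order of age. In the knockout it was 0.0150, 0.0747 and 2.95 (2.54 to 3.37). The knockout level at 4–5 h was close to wild type at 3–4 h, with overlapping intervals. The locus lies within the span of *Flo-2*, whose FPKM was 8.21 at 3–4 h and 7.89 at 4–5 h in wild type and 27.2 at 4–5 h in the knockout. *CG9509* and *Flo-2* thus did not move together. *CG10550* in wild type was 0.192, 0.0300, 0.188, 2.49 (1.90 to 3.08) and 6.21 (5.22 to 7.19) FPKM. In the knockout it was 0, 0.480 and 2.41 (1.91 to 2.92). It was one of 3 genes in the set with a higher value in the knockout than in wild type at 2–3 h, the others being *LysD* and *CG14957*, and for each of the 3 the intervals of that time point overlapped.

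*CG8083* (FBgn0025709, now *CNT2*, 2R, 4966232 to 4969879) encodes a concentrative nucleoside transporter, a membrane protein that takes up nucleosides with a cation gradient. In wild type it was 0.150, 0, 0.124, 5.77 (5.04 to 6.49) and 13.0 (11.8 to 14.1) FPKM in order of age. In the knockout it was 0, 0.0170 and 8.25 (7.47 to 9.03). This was the highest knockout level in the set at 4–5 h and the smallest shortfall, at 63.7% of wild type, and it lay above wild type at 3–4 h with intervals that did not overlap.

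*LysD* (FBgn0004427, 3L, 1210717 to 1211196) encodes a lysozyme, an enzyme that cleaves bacterial cell walls and in *Drosophila* acts mainly in the gut. In wild type it was 0, 0, 0.137, 3.75 (2.28 to 5.22) and 7.70 (5.43 to 9.96) FPKM in order of age. In the knockout it was 0, 0.760 (0.115 to 1.40) and 0.860 (0.183 to 1.54) FPKM. It was the one gene of the set whose knockout level at 4–5 h was not at least 2 times the higher earlier knockout value. At 4–5 h the knockout stood at 11.2% of wild type. The value is uncertain, because *LysB*, *LysC*, *LysD* and *LysE* are near-identical copies in a cluster and unique alignments can drop or split their reads. The *LysD* locus also overlaps *LysC* and *mwh*, both on the opposite strand in the later annotation, and the libraries kept strand. *LysB* went from 0.680 FPKM at 3–4 h to 2.15 at 4–5 h in wild type, and was 0.105 in the knockout at the later time. *LysE* had 1.44, 3.15 and 0.240 FPKM for the same tables, and *LysC* was listed at 0 in all 8. In wild type the copies with reads thus rose over the last step as *LysD* did, at lower levels. In the knockout from 2–3 h to 4–5 h, *LysB* went from 0.638 to 0.105 FPKM and *LysE* from 0.325 to 0.240, while *LysD* was level within its intervals.

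The remaining 5 genes carry numbers in place of names. *CG33494* (FBgn0053494, 3R, 21319281 to 21320883) had the highest wild-type level of the set. It was 0, 0.197, 0.546, 8.71 (7.15 to 10.3) and 18.7 (16.2 to 21.2) FPKM in wild type and 0.0557, 0.219 and 4.54 (3.55 to 5.53) in the knockout. Like *LysD* and *Ugt36Bc*, its knockout level at 4–5 h lay below wild type at 3–4 h with intervals that did not overlap. *CG12974* (FBgn0037065, 3L, 21275090 to 21279062) was 0, 0.244, 1.15 (0.773 to 1.52), 4.77 (4.01 to 5.53) and 10.9 (9.63 to 12.1) FPKM in wild type and 0.0257, 0.127 (0.00146 to 0.253) and 5.68 (4.94 to 6.42) in the knockout. It was one of 2 genes above 1 FPKM at 2–3 h in wild type, and the one gene whose knockout interval lay below wild type at that stage.

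*CG42712* (FBgn0261629, 2L, 8809400 to 8810032), the other gene above 1 FPKM at 2–3 h, was 0, 0.134, 1.12 (0.327 to 1.91), 1.98 (0.923 to 3.04) and 6.74 (4.64 to 8.83) FPKM in wild type and 0, 0.111 and 3.29 (2.09 to 4.50) in the knockout. *CG43290* (FBgn0262982, 3R, 3174571 to 3175274) was 0, 0, 0.302, 2.25 (1.29 to 3.20) and 5.42 (3.83 to 7.01) FPKM in wild type and 0, 0 and 1.82 (1.06 to 2.58) in the knockout. *CG14957* (FBgn0035412, 3L, 3187563 to 3188106) was 0 at the first 3 wild-type stages, then 1.90 (0.702 to 3.09) and 5.28 (3.18 to 7.37) FPKM, and 0, 0.134 and 1.07 (0.235 to 1.90) in the knockout. These were, with *LysD*, the 4 shortest loci of the set, between 480 and 704 bases, and their intervals at 4–5 h in wild type were the widest of the set relative to the value. *CG14957* overlaps *CG42525*, which had an FPKM of 0.177 at 4–5 h in wild type.

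**Figure D1:**
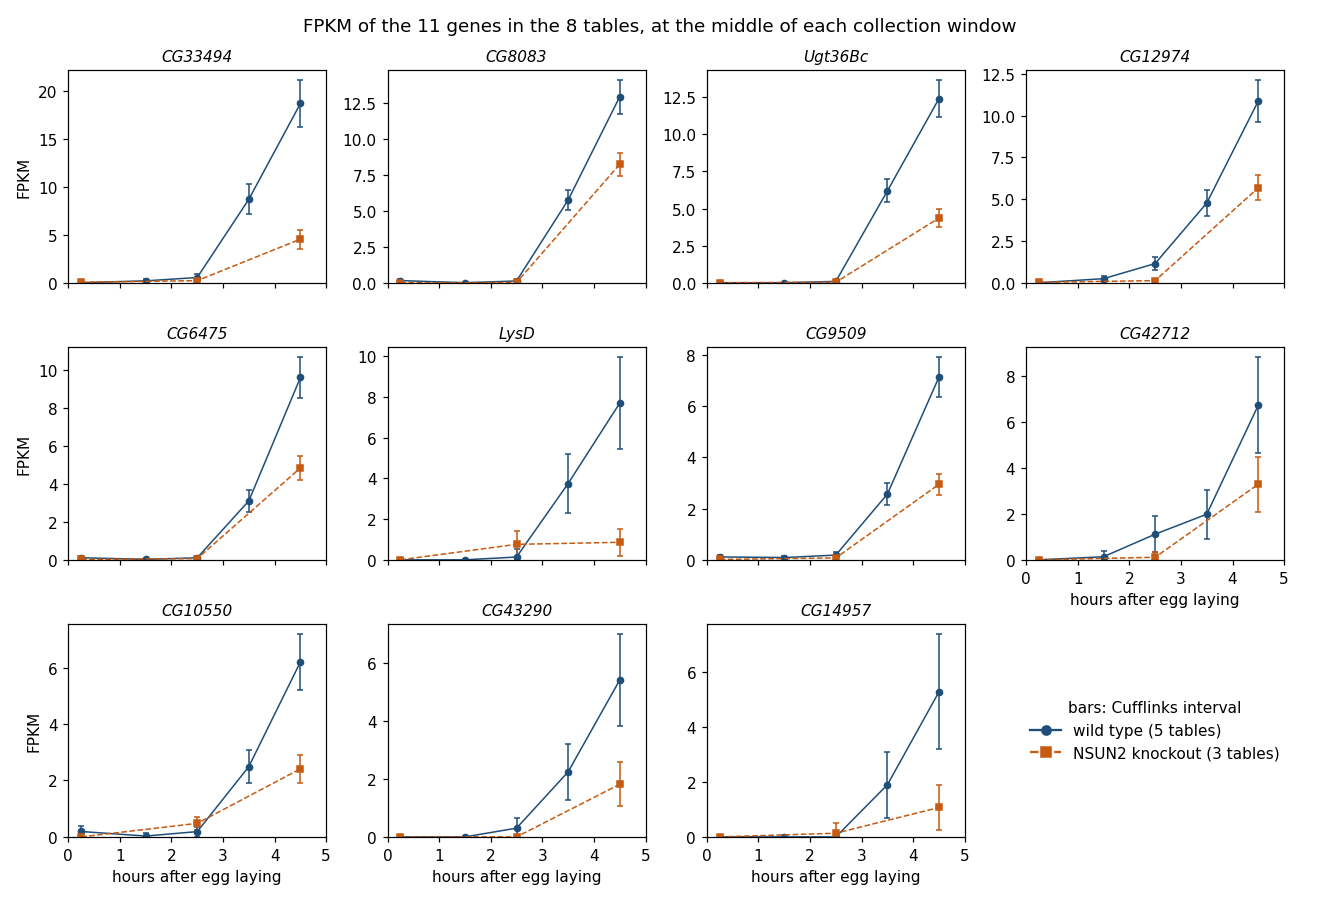
FPKM (vertical axis, scaled for each gene) of the 11 genes against hours after egg laying, at the middle of each collection window, with circles for the 5 wild-type tables, squares for the 3 knockout tables and bars for the Cufflinks interval. Wild type at 4–5 h ranged from 5.28 (*CG14957*) to 18.7 (*CG33494*) and the knockout from 0.860 (*LysD*) to 8.25 (*CG8083*), with the knockout bar below the wild-type bar in every panel.

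Over the set, the wild-type median went through 0, 0.0255, 0.185, 3.11 and 7.70 FPKM from the youngest to the oldest window. At 0–0.5 h 7 of the 11 genes were listed at 0, and the highest value was 0.192, so there was little maternal RNA of these genes in the eggs. At 2–3 h 9 of the 11 were still below 1 FPKM. The genes lay on 2L (2 genes), 2R (1), 3L (3), 3R (4) and X (1), and no pair of them lay within 20 kb of each other. Within 20 kb of the 11 loci there were 125 other listed genes, of which 39 had an FPKM of at least 5 at 4–5 h in wild type. None of these 39 reached 2 times its value at 3–4 h, as 0.357% of all genes at that level did.

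A peak cannot be read from these tables in the strict sense, since no stage after 4–5 h was measured here. The word covers the highest of the 5 stages only. In the wild-type tables, levels had risen before the last window. On the log2(FPKM + 1) scale, 10 of the 11 genes took a larger step from 2–3 h to 3–4 h, with a median of 1.59 (range 0.50 to 2.72), than from 3–4 h to 4–5 h, with a median of 1.04 (range 0.87 to 1.37). *CG42712* was the exception, with steps of 0.50 and 1.37. The same count was not made over all genes, so it is not read as a trait of the set. Over all genes the median ratio of FPKM at 4–5 h to that at 3–4 h was 0.899. By 3–4 h the wild-type FPKM of the set was already between 1.90 and 8.71. The same window had high values of late embryo muscle genes given further below, such as *Act57B* (0.361, 87.2 and 5.99 FPKM at 2–3, 3–4 and 4–5 h). Whether older embryos in that collection added to the 3–4 h values of the 11 genes was not tested. The gain in FPKM is not compared between these steps, because the required ratio of 2 fixes which one is larger.

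**Figure D2:**
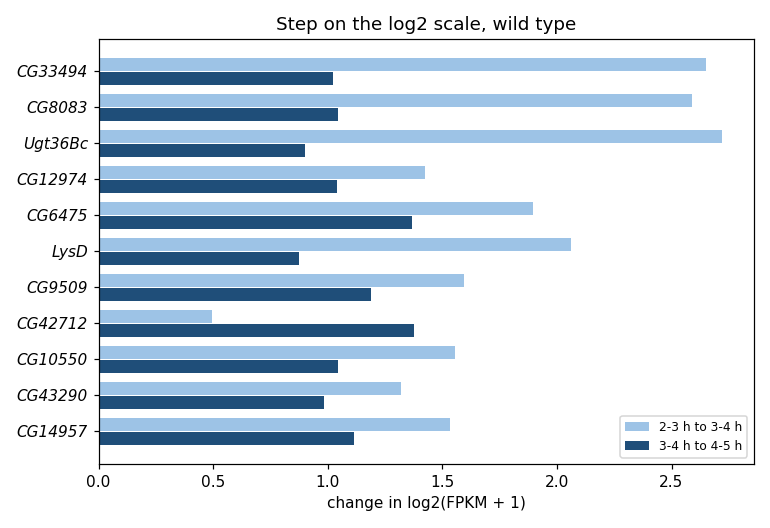
Wild-type step from 2–3 h to 3–4 h (light bars) and from 3–4 h to 4–5 h (dark bars) for each of the 11 genes, as a change in log2(FPKM + 1). The light bar is longer for 10 genes, with medians of 1.59 and 1.04, and *CG42712* is the exception.

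The steepness of the last step was close to the limit of the selection for several genes. FPKM at 4–5 h was between 2.00 (*Ugt36Bc*) and 3.40 times (*CG42712*) that at 3–4 h, with a median of 2.41. The wild-type interval at 4–5 h lay above those of all earlier stages in 11 of 11 genes, a property that follows largely from the selection and that 16% of all genes had against 3–4 h alone. The lower bound at 4–5 h was at least 2 times the upper bound at 3–4 h in 2 genes, *CG6475* (2.32) and *CG9509* (2.12), so for the other 9 a ratio below 2 lay within the reach of the intervals. Among all genes with the same span and status, 6.95% had at least 2 times the FPKM at 4–5 h as at 3–4 h. Of the 5889 genes of at least 5 FPKM at 4–5 h, 21 (0.357%) did so, and 16 reached 2 times each earlier stage. Below 5 FPKM, 574 genes reached 2 times each earlier stage, but only 53 of these had 1 FPKM or more, so values near the floor weigh on the share over all genes.

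Each limit of the selection had genes close to it on both sides. For the level at 4–5 h, *CG14957* (5.28) and *CG43290* (5.42) lay just inside, and *CG34445* (4.93), *Tim9b* (4.40), *CG43702* (4.18) and *CG1946* (3.63) just outside. For the ratio, *Ugt36Bc* (2.00) and *LysD* (2.05) lay inside, and *Mst36Fa* (1.94), *CG30380* (1.90), *GstE9* (1.84) and *CG16886* (1.83) outside. The limit of 10 FPKM at 3–4 h left out 5 genes that met the rest of the rule. They had far more mRNA than the 11, such as *HLHmdelta*, a Notch target of the Enhancer of split complex, at 87.9 FPKM at 3–4 h and 179 at 4–5 h, and *Smvt*, a vitamin transporter, at 15.6 and 39.4. Also left out by it were *CG8129* (14.6 and 31.8 FPKM) and *CG34025* (25.2 and 55.7). Of the 11, *CG33494* came nearest to that limit, at 8.71. Loci under 300 bases would have added small genes with wide intervals, such as the 252-base *CR43995* at 9.18 FPKM (4.40 to 14.0).

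**Figure D3:**
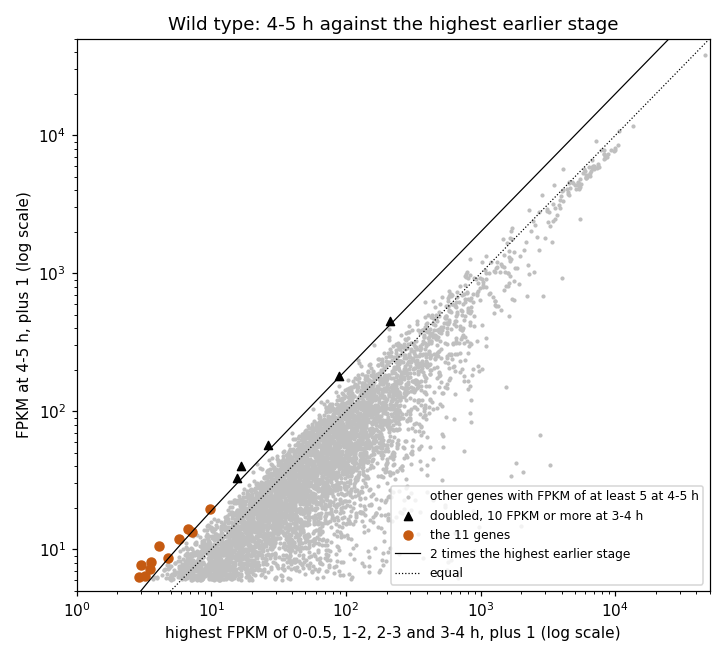
Wild-type FPKM plus 1 at 4–5 h against the highest of the 4 earlier stages plus 1 (both axes logarithmic), for genes with FPKM of at least 5 at 4–5 h. The 11 genes (large circles) lie at the low end, between 5.28 and 18.7 FPKM on the vertical axis, at or above the line for 2 times the earlier stages, and triangles mark the 5 genes that doubled from 10 FPKM or more at 3–4 h.

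The knockout tables asked whether a rise to 4–5 h also took place in embryos from NSUN2 mutant mothers. No knockout embryos were sampled at 3–4 h, so this rise runs from 2–3 h or earlier. The last wild-type step, from 3–4 h to 4–5 h, has no counterpart in the knockout. The knockout level was highest at 4–5 h in all 11 genes, a count for which the share over all genes was not computed. In 10 of 11 the knockout level at 4–5 h was at least 2 times the higher of the 2 earlier knockout values. The same held for 27.2% of all genes with the same span and status, and *LysD* was the exception (0.760 and 0.860 FPKM). In 9 of 11 the interval at 4–5 h lay wholly above both earlier intervals, as in 21.9% of all genes, the exceptions being *LysD* and *CG14957*. The selection favoured genes that are nearly silent early, and the background changes with this. Among 163 other genes with 5 to 20 FPKM at 4–5 h in wild type and below 1.5 at each stage up to 2–3 h, a ceiling that all 11 also met, 76.4% of those with a knockout value above 0 at one of the stages compared reached that ratio and 83.2% had such an interval. Among the 1550 genes that had already risen at least 2 times to 5 FPKM or more at 3–4 h, leaving out the 3 of the 11 that meet that rule too, the shares were 32.2% and 47.1%. The knockout rise of the 11 was thus shared by most other genes that start silent, while the share was smaller among genes that rose at 3–4 h from any starting level.

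The knockout rise differed in size between the genes. From the higher of the earlier knockout values to 4–5 h, log2(FPKM + 1) changed by between 0.08 (*LysD*) and 3.19 (*CG8083*), with a median of 1.95, against 1.39 in the 163 other genes and a median close to 0 over all genes. *CG12974* had the next largest knockout rise (2.57), followed by *CG6475* (2.46), *Ugt36Bc* (2.37) and *CG33494* (2.18). The 163 genes had a similar wild-type level at 4–5 h (median 7.11 FPKM against 7.70 in the 11) and a higher one at 3–4 h (8.58 against 3.11). In the knockout their median was 3.21 FPKM at 4–5 h against 3.29 in the 11, and 0.333 against 0.111 at 2–3 h. The larger median rise of the 11 thus ran from a lower start to a similar level.

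At 4–5 h every one of the 11 genes was lower in the knockout than in wild type, with intervals that did not overlap. In whole embryos, fewer cells making an mRNA and less of it per cell cannot be told apart. The same non-overlap held for 33.6% of all genes. The wild-type value at 4–5 h chose the genes, which favours this direction, and among the 163 other genes that start silent the share was 94.5%, and among the 1550 that rose at 3–4 h it was 76%. The knockout level was between 11.2% (*LysD*) and 63.7% (*CG8083*) of wild type, with a median of 38.9%, against 42.9% in the 163 genes, 59.6% in the 1550 and 71.8% over all genes. On the log2(FPKM + 1) scale the median difference was -1.08 in the 11, -0.66 in the 1550 and -0.07 over all genes. The deficit of the 11 was therefore close to that of other silent-starting genes of the same level.

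Within the set the deficit was largest for *LysD* (-2.22), *CG33494* (-1.83), *CG14957* (-1.60), *Ugt36Bc* (-1.32) and *CG43290* (-1.19), as the knockout minus wild-type difference in log2(FPKM + 1). It was smallest for *CG8083* (-0.59), *CG12974* (-0.83), *CG42712* (-0.85), *CG6475* (-0.86), *CG9509* (-1.04) and *CG10550* (-1.08). The 2 UDP-glycosyltransferases differed in this respect, with 35.1% of the wild-type level left for *Ugt36Bc* and 50.4% for *CG6475*. In the knockout 2 genes, *CG8083* and *CG12974*, reached an FPKM of 5 at 4–5 h.

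Measured against the wild-type embryos 1 h younger, the knockout values fell on both sides. At 4–5 h the knockout was above wild type at 3–4 h in 5 genes (*CG8083*, *CG9509*, *CG12974*, *CG6475* and *CG42712*) and below it in 6. The intervals overlapped in 6 genes, lay wholly above in 2 (*CG8083* and *CG6475*) and wholly below in 3 (*LysD*, *Ugt36Bc* and *CG33494*). The knockout level at 4–5 h was 22.9% to 166% of the wild-type level at 3–4 h, with a median of 96.8%. Over all genes 33.6% were above the wild-type level at 3–4 h, as were 1.84% of the 163 genes, where the median was 38.5%, and 2.9% of the 1550, where it was 46.9%. This contrast is set in part by the selection, which required low values at 3–4 h.

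**Figure D4:**
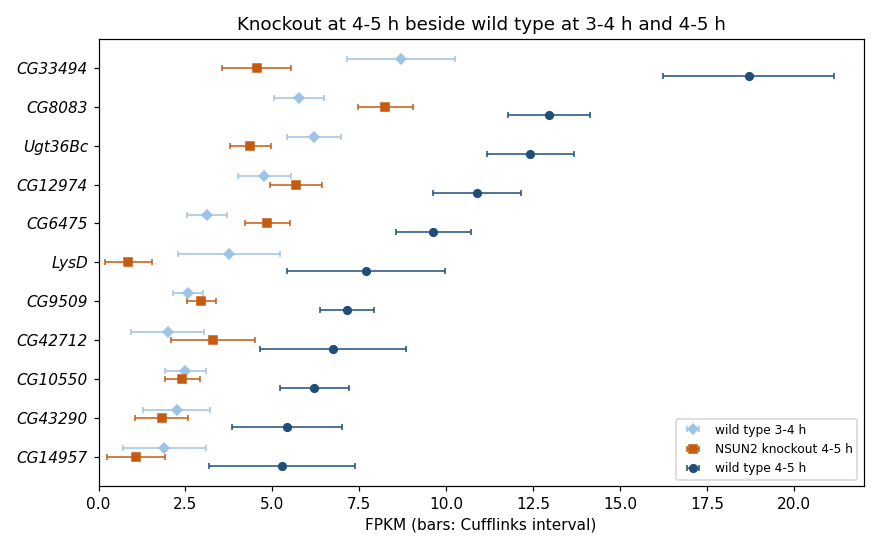
FPKM (horizontal axis) of each of the 11 genes in the knockout at 4–5 h (squares) beside wild type at 3–4 h (diamonds) and at 4–5 h (circles), with Cufflinks intervals as bars. All squares lie left of the circles, and they lie on both sides of the diamonds, to the right in 5 genes and to the left in 6.

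At 2–3 h the knockout was below wild type in 8 genes and above in 3, with a median difference of -0.14 in log2(FPKM + 1), or -0.70 with a pseudocount of 0.1. The genes above 1 FPKM in wild type at this stage were both much lower in the knockout, *CG12974* at 1.15 and 0.127 FPKM and *CG42712* at 1.12 and 0.111, each a difference of -0.93 in log2(FPKM + 1). The knockout interval lay wholly below wild type in *CG12974* alone, against 23.8% of all genes and 33.1% of the 163, and wholly above in 0 of the 11, against 39.3% and 16.9%. For *CG42712* the intervals overlapped. The other 9 genes were under 1 FPKM in both genotypes, where a difference would have been hard to detect. At 0–0.5 h the intervals did not overlap in 2 genes, *CG8083* and *CG10550*, against 50.6% of all genes and 24.5% of the 163, and both were listed at 0 in the knockout and below 0.2 FPKM in wild type. Their knockout intervals were 0 to 0, so any wild-type lower bound above 0 (here 0.0194 and 0.0131) counts as no overlap, and no difference is read from it.

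Of 192 genes on 14 lists for neural, tracheal, salivary gland, mesodermal, blood cell, gut, epidermal and signalling functions, 0 were among the 11. At 4–5 h in wild type 94 of them had an FPKM of at least 5, and 0 of these reached 2 times the value at 3–4 h, beside 0.357% of all genes at that level, so a count of 0 does not set the lists apart. The nearest was *wntD*, a Wnt family ligand, at 121 and 233 FPKM, followed by the proneural genes *l(1)sc* (161 and 301) and *ac* (56.0 and 103). Of the 110 list genes with at least 5 FPKM at some wild-type stage, 54 (49.1%) were highest at 3–4 h and 39 (35.5%) at 4–5 h, beside 26.7% and 18.4% of all genes with such a level. The summed FPKM at 4–5 h was lower in the knockout than in wild type for each of the 14 lists, for example 365 against 787 for the neuroblast and early neural genes. Over all listed genes of the series the sum was 955182 against 940615. Each list sum is set by its most abundant genes, such as *l(1)sc*. Single list genes went the other way, among them *ftz-f1* (27.0 in the knockout against 3.17), *Mad* (44.4 against 21.7) and *EcR* (9.44 against 5.14).

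Markers of embryo age and of other sources of RNA moved between the same tables. Of 11 late embryo muscle genes, 6 had at least 5 FPKM at 3–4 h in wild type and fell to less than 0.5 times that at 4–5 h, such as *Act57B* (87.2 and 5.99) and *Mlc2* (15.3 and 1.91). The sum over the list went from 537 to 407, most of it the broadly expressed *Tm1*. The sums of the late neuron genes (2.46 and 1.29), the larval cuticle genes (2.14 and 1.03) and the adult female and egg shell genes (5.01 and 2.38) also went down from 3–4 h to 4–5 h in wild type. These last sums are near the floor, with 1, 1 and 2 genes at 1 FPKM or more at 3–4 h, so little can be read from their direction. Lists chosen as markers of younger embryos differed between the genotypes at 4–5 h. The maternal transcripts summed to 288 FPKM for wild type against 937 for the knockout, and the cellular blastoderm genes to 168 against 96.7. Much of the maternal gap came from *smg* (54.1 against 392) and *twe* (16.1 against 165). *CycB3* (98.3 against 95.2) and *tud* (10.3 against 6.05) were lower in the knockout. Most of each blastoderm sum was *Kr* (125 against 63.8), which still rose in wild type from 92.9 at 3–4 h. On the same list *slam* went the other way (1.04 against 10.3). The part of these differences, and of the high muscle values at 3–4 h, in the values of the 11 genes was not tested.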

How the data were processed

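The authors prepared strand-specific libraries from polyadenylated RNA. Per the labels and the study's methods, adapters were cut with cutadapt (1.13 in the submitters' processing notes), read pairs were mapped with TopHat2 to BDGP5, and unique alignments were passed to Cufflinks. The authors deposited 8 tables of FPKM values with interval bounds, which are relative to the library's mapped fragments, so that a strong change in abundant genes shifts the rest. The methods state that replicates were averaged; how a deposited table relates to single libraries is not given in the sources used here. The tables hold no counts, so the depth is unknown. For genes of 5 to 20 FPKM, the median distance from value to bound was 8.43% to 10.1% of the value, and for the 11 genes at 4–5 h in wild type 13.2%.

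Conditions were taken from the labels. The selection, the log2(FPKM + 1) differences (pseudocount 1) and the counts of intervals that do not overlap were computed with Python 3.11.15, numpy 2.4.6 and pandas 2.3.3, and figures with matplotlib 3.10.9. The steps were tested on simulated data. A fold on the log2(FPKM + 1) scale understates the change of low genes. The genes, lists and the rule for naming genes (all 11 fall under it, with the genes nearest to each limit) were chosen with earlier results of these data known. The set of 163 genes, the gene families and the neighbours and markers named singly were chosen after the values were seen. Percentages over all genes cover those with the same span and status and a value above 0 in a compared table. Table starts were raised by 1. Names come from BDGP6 and RefSeq annotations, and none of their coordinates were used. Motifs in promoters were not analysed here.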

Additional observations from a re-analysis of the deposited data

How the results depend on the processing

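Of 55 values recomputed under the alternatives, 42 moved little and 13 moved further. The number of genes was 4 with a minimum of 10 FPKM, 22 with 3 FPKM, 2 with a 3-fold rule (which left 1024 in place of 1550 genes in the comparison set that rose at 3–4 h), 29 without the span filter and 41 after quantile scaling, which kept 9 of the 11. Without the span filter 48.3% reached 2 times their earlier knockout values in place of 90.9%. The median knockout difference at 4–5 h was -0.86 with the 3-fold rule, -1.34 without the span filter and -1.33 with a pseudocount of 0.1. The last wild-type step was 1.23 with that pseudocount and 1.61 after quantile scaling, and the difference at 2–3 h was -0.70 with that pseudocount. Median-of-ratios scaling dropped *CG14957*, equal totals dropped *LysD* and *Ugt36Bc*, and quantile scaling dropped *CG14957* and *CG43290*. Under each of the 3 scalings the knockout was lower at 4–5 h in 11 of the 11 genes. No paired analysis was possible because there is 1 table per condition and the labels give no replicate numbers, and for the same reason no replicate could be left out.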

Other observations

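Relatives of the named genes followed several courses. Of 35 listed UDP-glycosyltransferase genes, 5 had at least 5 FPKM in wild type at 4–5 h. *CG4302* (now *Ugt49B1*), which shares its subfamily name with *CG6475*, was 9.47 at 3–4 h and 15.6 at 4–5 h, and 6.41 in the knockout at 4–5 h. *Ugt36Ba*, which lies near *Ugt36Bc*, was 1.07 and 2.21 FPKM, and 1.32 in the knockout. *CG31002* (now *Ugt35D1*) was 28.4 at 3–4 h and 21.5 at 4–5 h, and 3.33 in the knockout at 4–5 h. *CG17322* (now *Ugt36E1*) had its mRNA early, with 18.2 FPKM at 0–0.5 h and 1.51 at 4–5 h in wild type, and was 32.4 in the knockout at 4–5 h. *CG3797* (now *Ugt316A1*) was present throughout, with 98.4 FPKM at 0–0.5 h, its lowest wild-type value of 36.6 at 3–4 h and 53.8 at 4–5 h.

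Of 50 genes listed as ecdysteroid kinase-like, 6 had at least 5 FPKM at 4–5 h in wild type. *CG18765* was 1.36 at 2–3 h and 16.3 at 4–5 h, and 2.80 in the knockout at 4–5 h. *CG2004* was 79.3 at 3–4 h and 46.0 at 4–5 h, and 66.5 in the knockout. *CNT1*, the other concentrative nucleoside transporter, stayed under 1 FPKM in all 8 tables.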
